A study of Mus musculus with 4 samples.

Results

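The gene module described here is the NF-kB pathway, represented by 35 genes. It holds the 5 subunit genes of the transcription factor, 6 genes of the IkB family that binds it, 5 kinase genes, 5 receptor adaptor genes, 5 genes of feedback inhibitors and 9 other target genes. The members were taken by symbol from the 55450 gene rows of the count files, and all 35 were found. They were measured in CD11c+ cells of the mesenteric lymph nodes of wild-type C57BL/6J mice after 6 h of culture with water (control) or with 10 µM of an agonist of Ffar2, a receptor for short-chain fatty acids. CD11c, encoded by Itgax, is an integrin of dendritic cells that other leukocytes can carry too, and magnetic beads enriched the cells without removing all others. Lymph nodes were pooled, 2 to a pool, and every pool supplied a control well and an agonist well. The titles number the libraries of each condition 2 and 3, and the number was taken as that of the pool. The labels do not state this, so pool 2 (control 2 and agonist 2) and pool 3 (control 3 and agonist 3) are inferred from the titles, the protocol and the sex-linked reads given below, and every value within a pool rests on it. The agonist's chemical name and the age of the mice were not given in the sources used here, and the wells share 2 pools in all, so p-values of the agonist comparison measure the spread between 2 libraries per group. The comparison asks whether 6 h with the agonist altered the transcripts of NF-kB and its regulators in these cells.

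NF-kB is a family of dimeric transcription factors that receptors of danger, microbial products and cytokines switch on in dendritic cells. In resting cells IkB proteins hold the dimers in the cytoplasm. The IKK kinase complex marks IkB for destruction, the dimers enter the nucleus and bind kappaB sites, and many of the genes they then transcribe encode their own inhibitors. A second, slower route runs through the kinase NIK (Map3k14), which is held down by Traf2, Traf3, Birc2 and Birc3 and leads to processing of the Nfkb2 product and to dimers with Relb. In dendritic cells Rel, Relb and their target genes are known for their part in maturation.

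Promoter windows are printed first, for members whose own gene carries a match to the kappaB consensus in a window clear of most of its exons. They are the 250 bases before a transcript start in RefSeq (build GRCm38.p6), read 5′ to 3′ on the gene's strand, and capitals mark the match. The consensus was searched on both strands in the form that leaves both central bases free, and overlapping matches were counted. The first 5 windows belong to members whose agonist well stood furthest above the control well of pool 2 or to the abundant subunit gene Rel, and the last 2 belong to Nfkbie and Tnip1, whose pool 2 agonist wells lay below the control.
Nfkb2, chr19:46305445-46305694, plus strand: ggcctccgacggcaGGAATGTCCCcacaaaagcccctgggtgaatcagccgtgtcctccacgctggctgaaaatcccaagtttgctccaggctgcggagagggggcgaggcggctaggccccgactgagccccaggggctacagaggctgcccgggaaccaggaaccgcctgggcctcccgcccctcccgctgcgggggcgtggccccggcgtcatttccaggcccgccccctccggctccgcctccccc
Nfkbia, chr12:55492648-55492897, minus strand: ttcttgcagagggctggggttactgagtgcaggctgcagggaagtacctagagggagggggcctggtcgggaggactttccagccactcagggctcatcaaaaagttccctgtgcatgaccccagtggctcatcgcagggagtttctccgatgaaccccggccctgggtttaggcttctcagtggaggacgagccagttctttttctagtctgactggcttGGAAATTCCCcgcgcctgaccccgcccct
Nfkbid, chr7:30422156-30422405, plus strand: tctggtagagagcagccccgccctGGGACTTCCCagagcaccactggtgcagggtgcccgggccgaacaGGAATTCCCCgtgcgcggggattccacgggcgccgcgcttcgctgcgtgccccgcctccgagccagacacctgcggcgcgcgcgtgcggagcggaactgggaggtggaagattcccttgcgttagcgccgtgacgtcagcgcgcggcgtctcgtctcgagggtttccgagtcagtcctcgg
Sod2, chr17:13007589-13007838, plus strand: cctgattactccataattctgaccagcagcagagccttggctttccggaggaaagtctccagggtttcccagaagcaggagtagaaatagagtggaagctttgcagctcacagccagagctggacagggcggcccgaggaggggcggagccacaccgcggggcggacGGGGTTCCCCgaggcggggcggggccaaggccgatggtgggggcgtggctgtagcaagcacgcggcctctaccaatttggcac
Rel, chr11:23770970-23771219, minus strand: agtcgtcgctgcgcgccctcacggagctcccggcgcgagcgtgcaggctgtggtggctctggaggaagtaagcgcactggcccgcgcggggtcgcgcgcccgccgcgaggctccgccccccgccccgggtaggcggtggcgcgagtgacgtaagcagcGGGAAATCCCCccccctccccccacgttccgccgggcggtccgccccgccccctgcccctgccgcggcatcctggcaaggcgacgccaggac
Nfkbie, chr17:45555450-45555699, plus strand: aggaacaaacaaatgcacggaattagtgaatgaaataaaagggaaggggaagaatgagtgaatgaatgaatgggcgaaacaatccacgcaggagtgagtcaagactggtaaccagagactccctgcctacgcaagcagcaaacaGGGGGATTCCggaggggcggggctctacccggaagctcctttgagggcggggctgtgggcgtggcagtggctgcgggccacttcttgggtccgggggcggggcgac
Tnip1, chr11:54962941-54963190, minus strand: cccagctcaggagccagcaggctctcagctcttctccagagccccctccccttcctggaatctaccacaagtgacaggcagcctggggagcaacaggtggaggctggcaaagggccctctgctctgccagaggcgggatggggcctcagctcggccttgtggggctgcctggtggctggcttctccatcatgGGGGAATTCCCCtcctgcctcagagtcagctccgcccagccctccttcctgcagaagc
The match lies 29 bases before the start in Nfkbia, 83 in Sod2, 106 in Nfkbie and 236 in this window of Nfkb2. Nfkbid has matches 226 and 181 bases before the start. Overlapping matches begin 92 and 91 bases before the start of Rel, and 58, 57 and 56 bases before that of Tnip1. The windows of Nfkb2, Nfkbid and Sod2 precede starts that lie inside the annotated gene, and the Sod2 window shares 22 bases with an annotated exon. Promoter windows were matched for 30 of the 35 members, and not for Nfkb1, Relb, Nfkbiz, Ikbkb and Tnfaip8. At least 1 window held the consensus in 12 of these 30 members (40.0%), against 2225 of 27025 genes (8.23%) in the whole table. Besides the 7 printed, these were Irf1, Tnip3 and Traf3, whose windows hold no exon base of the gene, and Tnfaip2 and Tnfaip3. Counted by window, 14 of 40 member windows (35%) and 7.25% of 32851 windows of all genes held it. Members of the list were chosen partly as NF-kB targets, so this share is a description of the list, and a match is not evidence of binding.

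Reads in genes numbered 43238375 to 59902172 per library, and 23225 to 23770 genes had at least 1 read. All 35 members passed the filter on low counts, with 18297 genes tested, and the lowest member count was 198 reads (Bcl3 in control 3). Of the listed dendritic markers, 16 of 16 were tested and none was at 0. Itgax itself was read at 189 and 178 CPM (reads scaled to a common library size and composition) in the pool 2 control and agonist wells and at 105 and 95.5 CPM in those of pool 3. Markers of other cells were present as well, and of those listed only Ly6g of neutrophils was at 0 in all 4 libraries. Fcer1a, Mcpt1, Mcpt4, Tpsb2, Retnlg, Tnfrsf17, Col3a1, Pdgfrb and Pdpn were at 0 in at least 1 library. Fewer cells of a type and less RNA per cell cannot be told apart in such bulk libraries. Both libraries of pool 2 had Xist reads (17776 and 21194) and no Ddx3y read, and both of pool 3 had Ddx3y reads (18752 and 21461) and no Xist read. Sex and pool therefore cannot be told apart.

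Rel was the most abundant subunit transcript in every library when levels were compared per kilobase of exon. The quantity is CPM per kilobase over all annotated exon bases of a gene, which gives low levels to genes with many alternative exons. Rel, which encodes c-Rel, the subunit typical of lymphoid and myeloid cells, averaged 155 CPM per kilobase over the 4 libraries (117 to 205). Rela, the p65 subunit of the canonical dimer, followed at 51.4 (46.0 to 62.7). Relb, the partner of p52, averaged 28.2 (22.2 to 41.4) and Nfkb2, the p100 precursor of p52, 21.6 (10.9 to 37.3). Nfkb1, the p105 precursor of p50, was lowest at 7.13 (6.68 to 8.21). The ranges of Relb and Nfkb2 overlapped, while those of the other neighbours in this order did not. With the longest transcript as length, Nfkb1 averaged 20.7 (19.4 to 23.9) and overlapped Nfkb2 (12.9 to 44.5), so the last places depend on the length used.

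Among the IkB family, Nfkbia, the classical IkB alpha that NF-kB itself induces, averaged 171 CPM per kilobase (79.2 to 274). Nfkbie, IkB epsilon, averaged 133 (109 to 162) and Nfkbib, IkB beta, 123 (63.4 to 151), so the ranges of these 3 cytoplasmic inhibitors overlapped. The nuclear, atypical members were lower: Nfkbid averaged 17.5 (10.6 to 36.2), Nfkbiz 4.81 (2.53 to 7.98) and Bcl3 1.83 (1.53 to 2.35). Bcl3, a co-regulator of p50 and p52 dimers, ranked last of the 35 members in every library.

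Over all exon bases, the kinase genes did not overlap between neighbours in the order. NIK (Map3k14) led with 115 CPM per kilobase (104 to 129), followed by the IKK catalytic subunit Ikbkb with 45.0 (38.3 to 49.0) and the regulatory subunit Ikbkg (NEMO) with 28.0 (21.6 to 35.2). Chuk, the other IKK catalytic subunit, averaged 12.1 (8.89 to 18.2), and Ikbke, an IKK-related kinase of the interferon response, 3.62 (2.20 to 5.04). The lead of NIK rests on the 19078 exon bases annotated for Ikbkb, against 4845 in its longest transcript. With the longest transcript as length, Map3k14 (161 to 199) and Ikbkb (151 to 193) overlapped, as did Ikbkg and Chuk. Traf1, a target gene and adaptor of TNF receptors, had the highest mean of all members at 404 (348 to 475). Birc3 and Birc2, ubiquitin ligases of the TNF receptor complexes, averaged 204 and 156, Traf2 averaged 52.8 and Traf3 19.7.

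Among feedback inhibitors, Tnfaip3 (the deubiquitinating enzyme A20) averaged 56.1 CPM per kilobase and its partner Tnip1 52.0. Tnip2 and Tnip3, relatives of Tnip1, averaged 19.9 and 19.0, and Zc3h12a (the ribonuclease Regnase-1) 10.9. The other targets spanned a wide range. Gadd45b, a stress-response gene, averaged 393 (273 to 481), above Irf1, an interferon regulatory factor, at 266 and Bcl2a1d, an anti-apoptotic Bcl-2 relative, at 248. Icam1, an adhesion molecule, averaged 148, the caspase-8 inhibitor Cflar 39.0, Tnfaip8 35.7 and Bcl2a1b 28.2. Sod2, mitochondrial superoxide dismutase, averaged 4.91 and Tnfaip2 3.91. The plot of levels per kilobase shows all of these by library. With the longest transcript as length, Irf1 averaged 494 (393 to 583) and Gadd45b 486 (338 to 596). Icam1 then averaged 255 beside 248 for Bcl2a1d, and Tnip3 44.8 beside 26.4 for Tnip2. The order within these pairs therefore depends on the length used.

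**Figure D1:**
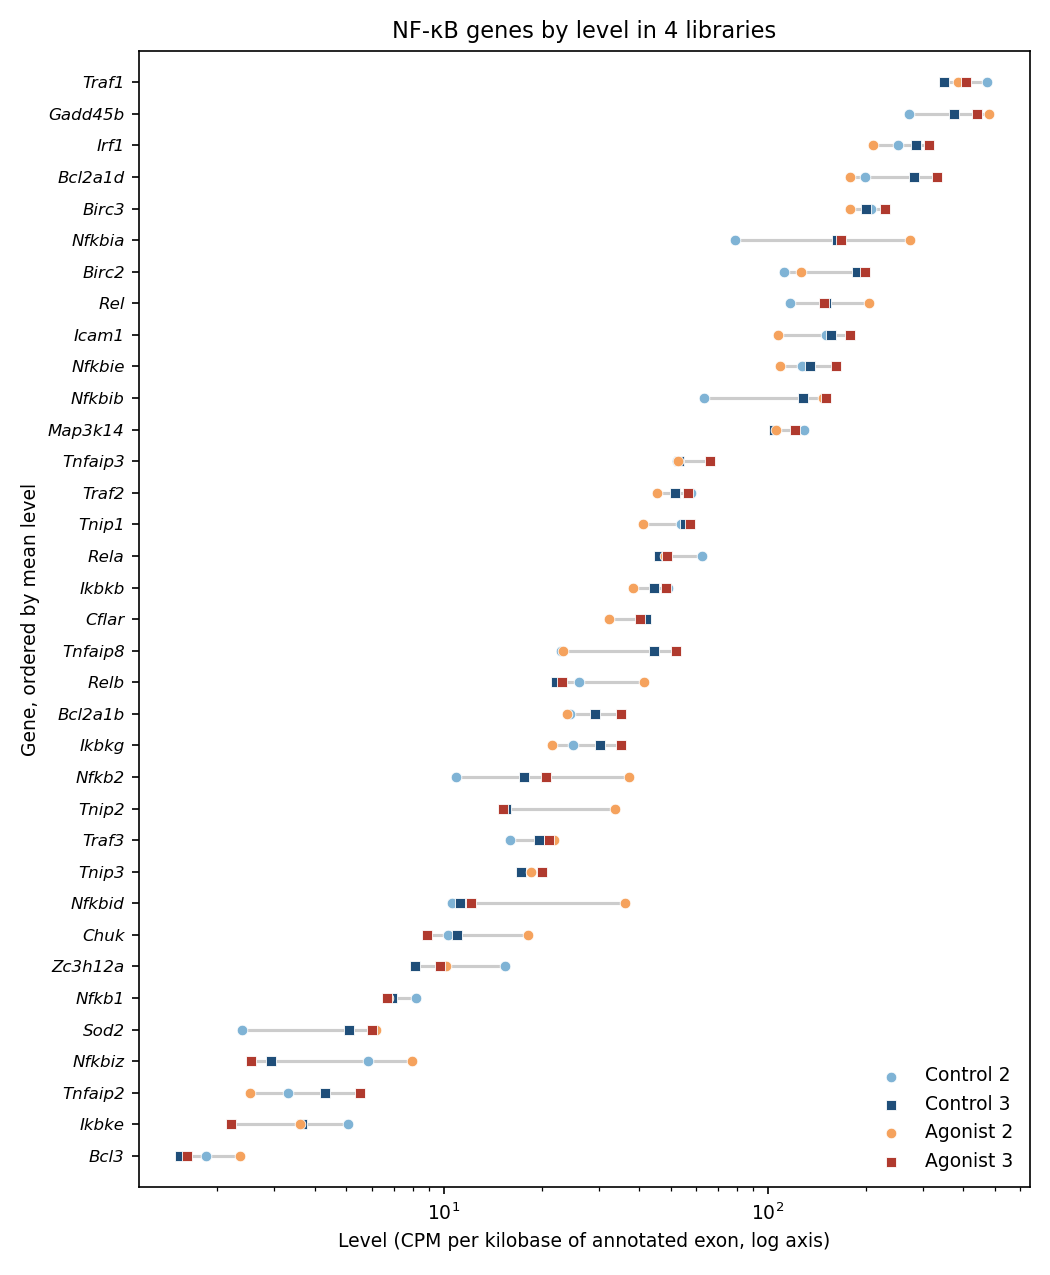
Level of each of the 35 members in the 4 libraries, as CPM per kilobase over all annotated exon bases on a log axis. Members are ordered by mean level, with 1 point per library. Traf1 and Gadd45b have the highest means (404 and 393) and Bcl3 is the lowest in every library.

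The agonist comparison gave no member past the threshold. Nfkb2, Nfkbia and Nfkbid had the largest values on the higher side, 3.42- to 3.46-fold in pool 2 and close to the control in pool 3, and Ikbke had the largest on the lower side. In edgeR's quasi-likelihood test with groups of 2 libraries, 0 of 35 members and 0 of 18297 genes (percent called 0) had an adjusted p under 0.05. The fit held no pool term, and the adjusted p of every member was 0.9999. At an unadjusted p under 0.05 there was 1 member, Nfkb2, which was higher, against 1.58 percent of all tested genes (0.639 percent higher and 0.94 percent lower). DESeq2 and limma-voom also called 0 members. The median log2 fold change of agonist over control was 0.09 over the members and -0.05 over all tested genes, and the members' median went to -0.17 without agonist replicate 3 and stayed above 0 without any other library.

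Among the subunits, Nfkb2 (chromosome 19, 46304320 to 46312385 on GRCm38) was read at 49.8 and 80.8 CPM in control 2 and control 3, and at 171.0 and 94.5 CPM in agonist 2 and agonist 3. Both agonist wells lay above both controls, with agonist 2 far above the rest and control 2 the lowest. The log2 fold change of Nfkb2 was 1.02 (SE 0.40, with a 95% interval of 0.04 to 2.00, unadjusted p = 0.0430 in edgeR), made up of 1.78 in pool 2 and 0.23 in pool 3. Without agonist replicate 2 it was 0.57, and without control replicate 2 it was 0.71. Rel had 874 and 1124 CPM in the controls and 1527 and 1109 in the agonist wells. Only agonist 2 stood above the controls, and the log2 fold change was 0.40 (SE 0.28). Relb, with 101 and 86.2 CPM against 161 and 89.9, showed the same single high library (log2 fold change 0.42, SE 0.35).

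Rela and Nfkb1 did not share that high well. Rela had 193 and 141 CPM in the controls and 147 and 150 in the agonist wells, which overlapped (log2 fold change -0.17, SE 0.28). Nfkb1 had 99.1 and 83.5 CPM against 81.1 and 80.5. Both of its agonist wells lay below both controls, by 0.29 on the log2 scale in pool 2 and 0.05 in pool 3, and the difference did not pass the test (log2 fold change -0.18, SE 0.26).

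In the IkB family, 3 of the 6 genes had both agonist wells above both controls (11.4 percent of all tested genes did). Nfkbia (chromosome 12, 55489410 to 55492647) had 128 and 262 CPM in the controls and 441 and 270 in the agonist wells. The control 2 value was the lowest and the agonist 2 value the highest, whereas the pool 3 wells were nearly equal. Agonist over control gave 0.87 on the log2 scale (SE 0.43, 95% interval -0.18 to 1.91), with 1.79 in pool 2 and 0.04 in pool 3. Nfkbib had 137 and 279 CPM against 321 and 328, so that control 2 was the library that stood apart (log2 fold change 0.64, SE 0.38). Nfkbid, a nuclear IkB (chromosome 7, 30421732 to 30428746), had 24.8 and 26.3 CPM against 85.0 and 28.4. Here agonist 2 alone was high, and agonist over control gave 1.15 on the log2 scale (SE 0.52, 95% interval -0.11 to 2.41). The value was 0.19 without agonist replicate 2.

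The remaining IkB genes overlapped between the groups. Nfkbie had 387 and 410 CPM in the controls and 331 and 494 in the agonist wells (log2 fold change 0.05, SE 0.29). Nfkbiz, an inducible nuclear IkB, had 29.2 and 14.7 CPM against 40.0 and 12.7, and was split by pool rather than by treatment (0.27, SE 0.61). Bcl3 had 4.57 and 3.79 CPM against 5.81 and 3.98 (0.23, SE 0.44).

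Of the kinase genes, Ikbke had both agonist wells below both controls. It was read at 45.5 and 32.9 CPM in the controls and at 32.5 and 19.8 in the agonist wells, a log2 fold change of -0.58 (SE 0.37, 95% interval -1.47 to 0.30). The difference was -0.48 in pool 2 and -0.73 in pool 3, so it was lower in both. Ikbkg had 202 and 246 CPM against 175 and 285, higher in pool 3 wells than in pool 2 wells in both groups (log2 fold change 0.04, SE 0.33). Chuk had 52.5 and 56.0 CPM against 92.5 and 45.2, higher in agonist 2 and lower in agonist 3 than in their controls. Ikbkb and Map3k14 had log2 fold changes of -0.11 and -0.04.

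The receptor adaptors lay close to their controls. Birc2 had 512 and 864 CPM in the controls and 578 and 913 in the agonist wells, a pool difference with little added by treatment (log2 fold change 0.12, SE 0.37). Traf3, a brake on NIK, had both agonist wells above both controls by a small margin, 161 and 155 CPM against 117 and 145 (0.27, SE 0.26). Traf1 (-0.05), Traf2 (-0.10) and Birc3 (0.01) had log2 fold changes nearer to 0.

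Feedback inhibitors overlapped between the groups. Tnip2 had 41.1 and 41.6 CPM in the controls and 90.2 and 40.9 in the agonist wells. Agonist 2 was again the single high library (log2 fold change 0.66, SE 0.41, and 0.02 without agonist replicate 2). A20 (Tnfaip3) had 379 and 383 CPM against 381 and 478 (0.17, SE 0.26), Tnip1 -0.15, Tnip3 0.05 and Zc3h12a -0.24.

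Of the 9 other targets, Sod2 and Gadd45b had both agonist wells above both controls (11.4 percent of all tested genes did). Sod2 had 23.8 and 50.9 CPM in the controls and 61.9 and 60.0 in the agonist wells, with control 2 the low library (log2 fold change 0.71, SE 0.41). Gadd45b had 434 and 595 CPM against 765 and 702 (0.51, SE 0.27, 95% interval -0.15 to 1.17). It was higher by 0.82 on the log2 scale in pool 2 and by 0.24 in pool 3. Bcl2a1d had 171 and 244 CPM against 155 and 286, Tnfaip2 16.5 and 21.4 against 12.6 and 27.5, and Tnfaip8 238 and 459 against 241 and 539. These 3 genes were ordered by pool in both groups, and their log2 fold changes were 0.09, 0.08 and 0.16. Cflar (-0.20), Icam1 (-0.10), Irf1 (-0.04) and Bcl2a1b (0.14) overlapped or differed little, with Cflar lower in both agonist wells than in both controls.

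**Figure D2:**
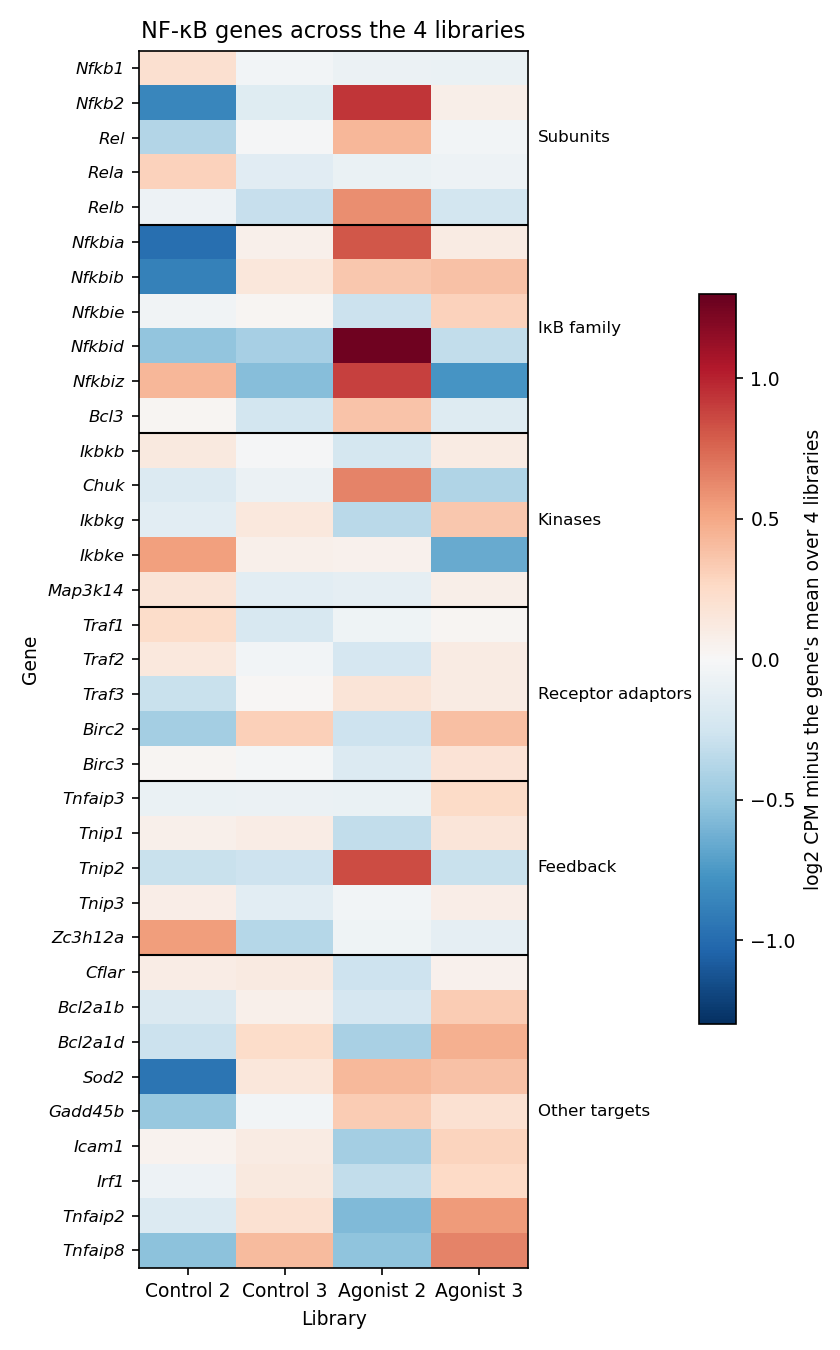
Log2 CPM of each member minus its mean over the 4 libraries, with libraries in columns, members in rows by role, red above and blue below the mean. Nfkb2, Nfkbia and Nfkbid are lowest in control 2 and highest in agonist 2, and Tnfaip8 separates the pool 2 wells from the pool 3 wells.

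Within the pools, 12 members were higher with agonist in both pools (21 percent of all tested genes were), 3 were lower in both (27.9), and 20 went in opposite directions (50.7). The members lower in both were Nfkb1, Ikbke and Cflar. Both agonist wells lay above both controls for 7 members (11.4 percent of all tested genes) and below them for 3 (13.5). The 7 were Nfkb2, Nfkbia, Nfkbib, Nfkbid, Traf3, Sod2 and Gadd45b.

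The pools differed in the size of the differences. In pool 2, 6 members were more than 1 log2 unit higher with agonist: Nfkbia (1.79), Nfkb2 (1.78), Nfkbid (1.77), Sod2 (1.38), Nfkbib (1.22) and Tnip2 (1.13). In pool 3 no member was, and the highest value was 0.36. No member was more than 1 log2 unit lower in either pool (8.85 percent of all tested genes in pool 2 and 9.55 percent in pool 3 were). Of all tested genes 13.8 percent passed that size in pool 2 and 5.67 percent in pool 3, mostly genes with few reads. Among genes with an average log2 CPM of 5 to 7, 4 of 8 members and 7.31 percent of 3213 genes passed it in pool 2. From 7 upward, 2 of 22 members and 4.86 percent of 1542 genes did. Each of these comparisons rests on 1 well against 1 well and has no replicate check. Over the 12 members with a kappaB match in any window, the pool 2 difference ran from -0.39 (Tnfaip2) to 1.79 (Nfkbia). No window of Nfkbib or Tnip2 held a match.

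The spread between the wells was itself wider in pool 2. Among genes with an average log2 CPM of at least 7, the SD of agonist minus control was 0.473 in pool 2 and 0.186 in pool 3. Control 2 was the lowest and agonist 2 the highest library for 7 members (10.9 percent of all tested genes): Nfkb2, Rel, Nfkbia, Nfkbid, Traf3, Sod2 and Gadd45b. Abundant genes that are not members of the module had the same form. Fth1, the ferritin heavy chain, had 441 and 696 CPM in the controls and 2372 and 720 in the agonist wells. Pfn1, the actin-binding profilin, had 56.3 and 137 CPM against 268 and 143. Both were named after their values were seen, and the part of control 2 or agonist 2 as libraries in the members' values was not tested.

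**Figure D3:**
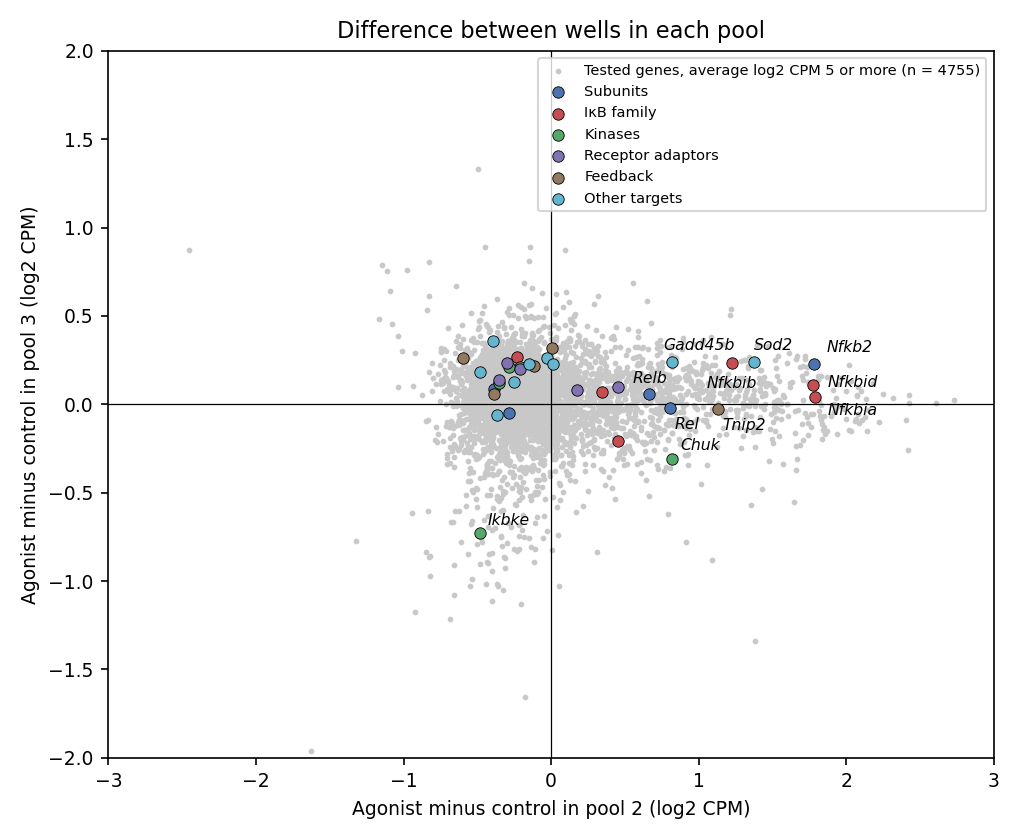
Agonist minus control in log2 CPM, pool 2 on the horizontal and pool 3 on the vertical axis, for the 35 members coloured by role over the 4755 tested genes with an average log2 CPM of at least 5 in grey (1 grey gene lies outside the axes). Members spread from -0.60 to 1.79 in pool 2 and from -0.73 to 0.36 in pool 3.

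In pool 3, 28 of 35 members (80.0%) were higher in agonist 3 than in control 3, against 63.5% of tested genes of average log2 CPM 5 or more and 49.2% of all tested genes. In pool 2, 16 (45.7%) were higher and 19 lower, against 33.0% and 43.6% of those genes higher. The median difference of the members was -0.12 in pool 2 and 0.14 in pool 3. Over all tested genes it was -0.09 and -0.0048. In the abundance ranges that hold most members it was -0.15 and 0.03 (average log2 CPM 5 to 7) and -0.18 and 0.09 (7 or more), so the distance from other genes depends on the genes taken.

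With the pool as a block, which the division of each pool between wells supplies, 0 members were called and 1 of 18297 genes (percent called 0.00547). At an unadjusted p under 0.05 the blocked edgeR fit gave 5 members, all higher, against 3.53 percent of genes (1.69 percent higher and 1.84 percent lower). They were Nfkb2 (log2 fold change 1.002, SE 0.37), Nfkbia (0.92, SE 0.39), Nfkbid (0.94, SE 0.40), Nfkbib (0.73, SE 0.29) and Sod2 (0.81, SE 0.33), and their adjusted p was 0.9998.

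Levels of markers of other cells differed between the wells too. Of all tested genes, 27.9 percent were lower with agonist in both pools and 21 percent higher in both. Of the 14 T cell markers, 12 were lower in both pools. Their summed levels were 640 to 1150 CPM in the controls and 459 to 810 in the agonist wells. Of the 12 B cell markers, 10 were lower in both pools (1242 to 2015 against 1007 to 1826 CPM). None of either list was at 0 in any library. Among 8 NK cell markers, 6 were lower in both pools. Among 8 plasmacytoid dendritic cell markers, 5 were lower and 1 was higher in both. Of the 8 plasma cell markers, 7 were tested, of which 2 were lower (Igha and Jchain) and 2 higher in both pools. Igha, the constant region of IgA, had 394 and 164 CPM in the controls and 50.0 and 16.8 in the agonist wells. Jchain had 66.9 and 100 CPM against 21.7 and 25.8. The summed level of the list was 302 to 495 CPM in the controls and 74.7 to 152 in the agonist wells. The list median was 0.30 on the log2 scale. Of the 7 mast cell markers, 5 were tested and 2 of these were higher in both pools. Their summed level, nearly all Kit, was 476 to 790 CPM in the controls and 453 to 834 in the agonist wells. The mast cell proteases were highest in agonist 2: Mcpt4 had 0 reads in both controls, 189 in agonist 2 and 38 in agonist 3, and Cpa3 24 and 30 against 159 and 22. The part of these cells in the members' values was not tested.

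Between the pools, 0 of 35 members passed the test, against 0.394 percent of genes (0.104 percent higher and 0.29 percent lower). The largest values were Tnfaip8, higher in pool 3, and Nfkbiz, higher in pool 2. Tnfaip8, a TNF-induced gene on chromosome 18 (49979427 to 50107173), had 238 and 241 CPM in the pool 2 wells and 459 and 539 in the pool 3 wells. The pools did not overlap, and the log2 difference of pool 3 over pool 2 was 1.06 (SE 0.23, 95% interval 0.53 to 1.59, edgeR adjusted p = 0.0894). Nfkbiz (chromosome 16, 55811375 to 55838899) had 29.2 and 40.0 CPM in pool 2 against 14.7 and 12.7 in pool 3, a log2 difference of -1.32 (SE 0.31, 95% interval -2.03 to -0.62, edgeR adjusted p = 0.103). Each arm is 1 pool, so these p-values measure the spread between wells only.

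At an unadjusted p under 0.05 there were 5 members against 13.9 percent of genes (6.15 percent higher and 7.71 percent lower). Besides Tnfaip8 and Nfkbiz they were Birc2 (0.71, SE 0.23), Bcl2a1d (0.70, SE 0.24) and Tnfaip2 (0.75, SE 0.32), all higher in pool 3. Both pool 3 wells lay above both pool 2 wells for 11 members (24 percent of all tested genes) and below them for 4 (25.2). The 11 included 6 of the 9 other targets, namely Bcl2a1b, Bcl2a1d, Icam1, Irf1, Tnfaip2 and Tnfaip8, together with Nfkbie, Ikbkg, Birc2, Tnfaip3 and Tnip1. The 4 were Relb, Nfkbiz, Bcl3 and Zc3h12a. The median over the members was 0.12 and over all tested genes -0.01.

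The calls differed between fits. DESeq2 and the fit without a filter on low counts each called Nfkbiz and Tnfaip8, and limma-voom called Tnfaip8. A fit that leaves out 1 library sets a single well of one pool against both wells of the other and cannot hold the treatment term, so its values mix pool with treatment and assume that the lone well varies like the others. Without control replicate 2, 7 members were called (Nfkb2, Relb, Nfkbia, Nfkbid, Nfkbiz and Tnip2 lower, Tnfaip8 higher), and without agonist replicate 2, 7 were called (Nfkb2, Nfkbia, Nfkbib, Birc2, Sod2 and Tnfaip8 higher, Nfkbiz lower). Nfkb2 was -0.96 in the former fit and 0.84 in the latter, and Nfkbia -0.72 and 1.08. The part of the left-out library and that of the missing treatment term in these values cannot be told apart. Tnfaip8 stayed between 0.95 and 1.16 and Nfkbiz between -1.54 and -1.07 when any single library was left out.

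**Figure D4:**
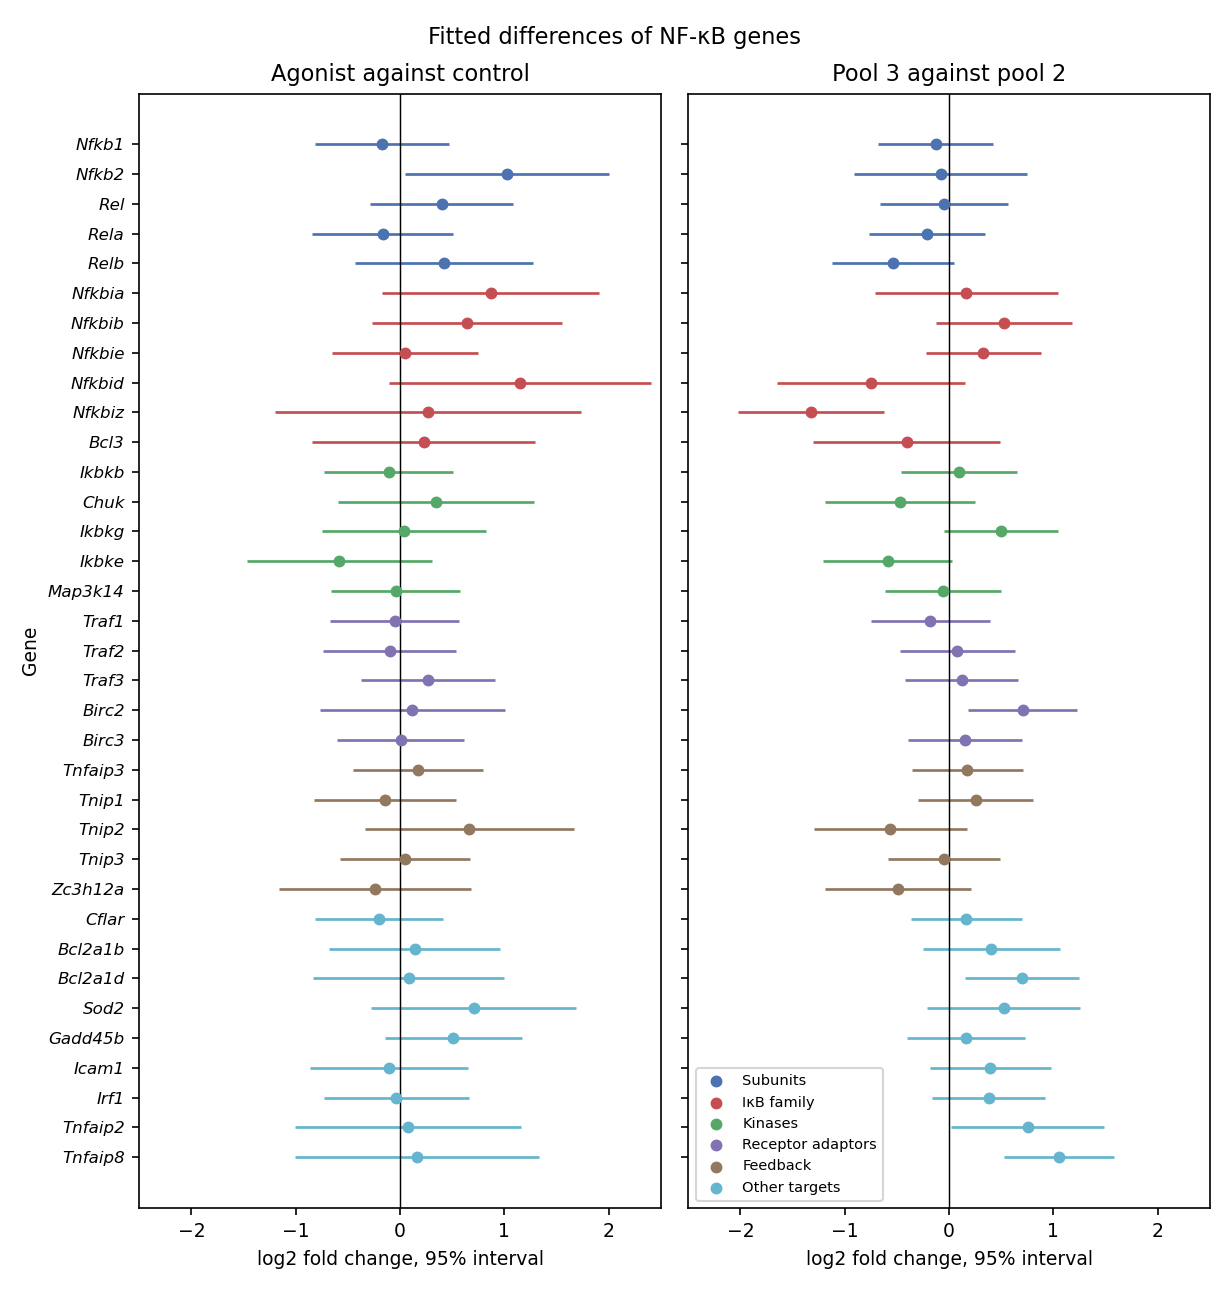
Log2 difference of each member with its 95% interval (from the edgeR standard error), agonist over control on the left and pool 3 over pool 2 on the right. The fit on the left has no pool term, and the fit on the right holds the group term. On the left only the interval of Nfkb2 excludes 0 (0.04 to 2.00), and on the right Tnfaip8 (0.53 to 1.59) and Nfkbiz (-2.03 to -0.62) lie furthest from it.

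Levels of markers of T cells, of B cells and of monocytes and macrophages differed between the pools as well. Of all tested genes, 25.2 percent had both pool 3 wells below both pool 2 wells. This held for 11 of 14 T cell markers, 9 of 12 B cell markers and 7 of 11 monocyte and macrophage markers. It also held for 5 of 8 plasmacytoid dendritic cell markers, but for only 2 of 8 NK cell markers. The summed monocyte and macrophage level was 5124 to 5725 CPM in pool 2 and 3145 to 3482 in pool 3, and none of these markers was at 0. The part of these cells, and of sex, in the members' pool differences was not tested.

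Other genes of the pathway were taken from 4 lists: 12 receptors, 30 signalling genes, 20 secreted targets and 20 further targets, of which 81 of 82 were tested. The exception was Nos2, which had no read in any library. The agonist comparison called 0 of them, with a median log2 fold change of 0.03. Junb, a component of AP-1, was the gene of these lists with the smallest p. It had 34.8 and 71.3 CPM in the controls and 231 and 72.6 in the agonist wells (log2 fold change 1.52, SE 0.61, unadjusted p = 0.0463 in edgeR), 2.73 in pool 2 and 0.03 in pool 3. Its single high library was the one in which Nfkb2 and Nfkbid were high, and control 2 was its lowest. Rbck1 and Sharpin, subunits of the linear ubiquitin ligase that builds chains on NEMO, had log2 fold changes of 0.88 (SE 0.42) and 0.82 (SE 0.39). Their differences were 1.73 and 1.45 in pool 2, and 0.21 and 0.16 in pool 3. Among the receptors, Ltbr, the lymphotoxin beta receptor, had 0.75 (SE 0.64), its pool 2 difference being 1.95 and its pool 3 difference -0.27, and Tnfrsf1a, the TNF receptor 1, 0.39 (SE 0.36). Lta, lymphotoxin alpha, had -0.87 (SE 0.52) and was lower in both pools. Sqstm1, the autophagy receptor p62, had 1.05 (SE 0.49), or 2.18 in the wells of pool 2 and 0.12 in those of pool 3.

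Between the pools, 4 of the 81 genes were lower in pool 3 past the test (0.29 percent of all tested genes) and 0 were higher (0.104 percent). They were Ccl4, a chemokine for monocytes and T cells, and the activation genes Cd69, Plaur and Nr4a1. Ccl4 had 95.3 and 53.3 CPM in the pool 2 wells and 11.9 and 7.81 in the pool 3 wells (log2 difference -2.89, SE 0.28, edgeR adjusted p = 0.00870). Cd69 had 122 and 105 CPM against 19.7 and 22.2 (-2.44, SE 0.27, edgeR adjusted p = 0.0126). Both genes were separated by pool without overlap. Plaur had -2.53 (SE 0.28) and Nr4a1 -1.89 (SE 0.27). Of the 20 secreted targets, 11 had both pool 3 wells below both pool 2 wells (25.2 percent of all tested genes did). The 11 included Tnf (-1.32, SE 0.32, edgeR adjusted p = 0.113), which did not pass. Malt1, a paracaspase upstream of IKK, had -1.31 (SE 0.23, edgeR adjusted p = 0.0589). The median over the 4 lists was -0.23 and over all genes tested -0.01.

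Several member counts are uncertain. The transcripts of Bcl2a1b and Bcl2a1d are identical at 810 of 817 aligned bases (99.1%), and Bcl2a1b shares 401 exon bases with Gm29094 on the same strand, so the authors' counting could have split or dropped reads of these genes. The library kit does not mark strand. Reads of Nfkb2 therefore cannot be told apart from those of AC114539.1 and Psd over 531 and 299 exon bases, those of Nfkbib from Ccer2 over 314, those of Icam1 from Gm47079 over 511, those of Ikbkg from G6pdx over 418, and those of Tnfaip8 from C030005K06Rik over 1312. Tnfaip2 overlaps Gm40578 in this way over 314 exon bases, and shorter overlaps of this kind affect Bcl3, Ikbke and Irf1.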

How the data were processed

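For each of the 4 libraries the authors deposited raw gene counts as whole numbers. The submitters' processing notes name STAR 2.7, HTSeq 0.11.1 and GRCm38 (mm10), and the sources used here do not give the strand setting. Lines without a gene entered no library size: reads outside genes made up 16.0% to 20.0% of reads, those over several genes 5.77% to 6.50%, and multiply aligned ones 6.54% to 6.98%. All 55450 rows matched GENCODE M21 by ID and symbol. Counts were filtered (filterByExpr, minimum count 10), scaled by TMM and tested with edgeR 4.0.16 in R 4.3.3 (quasi-likelihood, adjusted by Benjamini-Hochberg over 18297 genes). DESeq2 1.42.0, limma 3.58.1 (voom) and the fits without each library were alternatives. Log2 CPM of single libraries used a prior count of 2. SEs come from the fold change and F statistic.

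Same-numbered libraries deviated together (r = 0.288 across 18297 genes), and shared Xist or Ddx3y reads. With the stated division of each pool, they were taken as pairs in the differences within pools and in the fit with the pool as a block. The main agonist fit held the group only, so its SEs, intervals and p-values are unpaired. The main pool fit held the group term. Levels over the longest transcript were an alternative chosen after seeing the data. The members and lists were chosen with earlier results of these data known. Genes given in full by rule were the subunit and IkB genes and the 8 members with the smallest unadjusted p in each comparison. Library values of Chuk, Traf3 and Tnfaip3 were given outside that rule. Of each other list, up to 3 genes were eligible. Scripts were tested on simulated data.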

Additional observations from a re-analysis of the deposited data

Results flagged for a closer look

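The genes Chuk, Zc3h12a and Tnfaip2 moved in opposite directions in the pools by more than 0.25 on the log2 scale in each, as agonist minus control. The kinase gene Chuk was 0.82 in pool 2 and -0.31 in pool 3. The ribonuclease gene Zc3h12a was -0.60 in pool 2 and 0.26 in pool 3, and Tnfaip2 was -0.39 in pool 2 and 0.36 in pool 3. Each pool has 1 well per condition, so the difference between the pools was not tested.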

How the results depend on the processing

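With 2 libraries per group and 2 pools, the agonist comparison called 0 members under every alternative run, and the adjusted p of its best member was at least 0.9992 without any single library. The number of genes called was 9 with no filter on low counts, 7 in DESeq2, 1 with the pool as a replicate block in edgeR, 6 with that block in DESeq2, 2 with it in limma-voom (both added after the data were seen), and 0 to 2 without single libraries, and the members' median was -0.17 to 0.25 in the latter. The block changed no call of a member. Between the pools, genes called went from 72 to 5 with total counts, 600 with no filter, 141 with a stricter filter (at least 1 CPM in all libraries), 706 in DESeq2, 275 in limma-voom and 5 without the group term. Without single libraries, where the group term was also dropped because 3 libraries leave no residual degrees of freedom with it, they numbered 1 to 1575. Members called were 2 with no filter, 2 in DESeq2, 1 in limma-voom and 0 to 7 without single libraries. The members' median was 0.0412 with total counts, 0.0563 with the stricter filter, 0.0857 without the group term and 0.00318 to 0.16 without single libraries.

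Tnfaip2 turned to -0.0153 in limma-voom and to -0.0158 with the pool block in the agonist comparison, and Nfkbia to -0.10 between the pools without the group term. Without single libraries, agonist values ranged from -0.30 to 0.0744 for Rela, -0.36 to 0.38 for Ikbkg, -0.26 to 0.61 for Birc2, -0.43 to 0.50 for Bcl2a1d, -0.60 to 0.57 for Tnfaip2, -0.54 to 0.77 for Tnfaip8, -0.75 to 0.86 for Nfkbiz, -0.0268 to 0.77 for Relb, -0.0345 to 0.47 for Bcl3 and -0.28 to 0.34 for Nfkbie. Pool values ranged from -0.25 to 0.0205 for Nfkb1, -0.72 to 1.08 for Nfkbia, -0.0775 to 1.16 for Nfkbib, -0.15 to 1.24 for Sod2, -0.23 to 0.60 for Gadd45b, -0.96 to 0.84 for Nfkb2, -0.45 to 0.37 for Rel, -1.63 to 0.16 for Nfkbid and -1.12 to 0.0230 for Tnip2. Each such fit has 1 library in an arm, assumed to vary like the others, and the pool fits without single libraries change both the library and the group term. The cause was not tested. Members had at least 198 reads in each library.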
